A study of Mus musculus with 7 samples.

Results

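The *Nppa* and *Nppb* cluster is a pair of natriuretic peptide genes that lie head to tail on mouse chromosome 4, and it was examined through the deposited ATAC-seq peaks on chr4:147935000-148055000 of GRCm38. That window of 120000 bp was set by position, and every peak in it was used. It held 215 peaks over 7 libraries, of which 73 had a q-value of at most 0.01. Peaks of different libraries that shared at least 1 bp were joined into 104 regions. Of these, 29 had a q-value of at most 0.01 in at least 1 library and are called supported, out of 206299 supported regions in the genome.

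The libraries came from cells of the micro-dissected second heart field (SHF) region of mouse embryos at E9.5, sorted by flow cytometry from pools of embryos. GFP+ cells (replicates 3 and 4) and GFP- cells (replicates 1 and 2) were from the Hoxb1-GFP line, in which GFP reports *Hoxb1* and marks the posterior SHF. Tomato+ cells (replicates 6 and 8) and Tomato- cells (replicate 7) carried *Mef2c-Cre;Rosa-tdT*. In that line a *Mef2c* enhancer of the anterior heart field drives Cre and the label stays on in all descendants, outflow tract and right ventricle included. No group was treated, and the number of copies of the Hoxb1-GFP allele is not given in the sources used here. The study's methods appear to list this allele as *Hoxb1-*, its notation for the mutant allele. GFP+ and GFP- cells may therefore carry a disrupted copy of *Hoxb1*, and the part of this in the values was not tested. The sorted population and the mouse line cannot be told apart in a comparison of GFP+ with Tomato+ cells. Replicate numbers are adapter numbers, and whether replicates came from separate pools of embryos is not given either.

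*Nppa* encodes atrial natriuretic peptide and *Nppb* encodes brain natriuretic peptide, hormones that act through membrane guanylate cyclases to lower blood pressure and volume. In the embryo both genes are switched on as the working myocardium of the atria and ventricles differentiates, and they stay low in progenitors and in the atrioventricular canal. Cardiac factors of the NKX, GATA and T-box families are known to act on the *Nppa* promoter, and in the study it served as a reporter for Hoxb1 activity. In ATAC-seq a transposase inserts adapters where chromatin is open, and the sequenced tags pile up there. The comparison therefore asks whether the DNA around these genes was open in progenitors of the posterior and anterior SHF.

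Sequences that carry the results are shown first. They are from GRCm38, plus strand, which is the strand of both genes, with positions counted from the RefSeq transcription start site (TSS) and negative upstream of it. The upstream sequence of each gene is the 250 bases before its TSS in the RefSeq promoter table. The *Nppb* peak centre is the 201 bases around the highest GFP+ summit, and the *Nppa* peak region is the whole joined peak. Capitals mark matches, on either strand, to the NKX string TNAAGTG, the GATA string AGATAA and its shorter core, written GATAA, the T-box string GGTGTGA, the TEAD string GGAATG, the MEIS string TGACAG, the PBX string TGATTNAT or the HOX string TAATTA.
Nppb upstream, chr4:147985650-147985899: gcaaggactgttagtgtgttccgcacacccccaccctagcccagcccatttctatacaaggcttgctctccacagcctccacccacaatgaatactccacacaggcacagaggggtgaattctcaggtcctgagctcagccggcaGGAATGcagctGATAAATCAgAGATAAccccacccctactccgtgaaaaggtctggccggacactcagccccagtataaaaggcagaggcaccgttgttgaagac
Nppb peak centre, chr4:147985425-147985625: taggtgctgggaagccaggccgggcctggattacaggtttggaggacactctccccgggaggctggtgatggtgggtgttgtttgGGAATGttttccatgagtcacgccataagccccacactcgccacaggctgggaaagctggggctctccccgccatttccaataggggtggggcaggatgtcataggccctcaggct
Nppa upstream, chr4:148000472-148000721: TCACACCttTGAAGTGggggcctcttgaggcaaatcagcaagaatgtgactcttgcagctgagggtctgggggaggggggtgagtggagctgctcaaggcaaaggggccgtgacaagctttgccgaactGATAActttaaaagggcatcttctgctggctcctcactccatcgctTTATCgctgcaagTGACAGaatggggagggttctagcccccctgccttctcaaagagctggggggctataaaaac
Nppa peak region, chr4:148000266-148000441: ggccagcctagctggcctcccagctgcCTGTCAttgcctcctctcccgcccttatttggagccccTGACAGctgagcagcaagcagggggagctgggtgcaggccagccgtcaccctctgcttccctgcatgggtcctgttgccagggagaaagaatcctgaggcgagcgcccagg

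The *Nppb* upstream sequence held GGAATG at -105 to -100, a GATAA at -94 to -90 that overlaps a reverse-strand PBX match at -93 to -86, and AGATAA at -84 to -79. The *Nppb* peak centre held a further GGAATG at -390 to -385, beside the GFP+ summits. In the *Nppa* upstream sequence a reverse-strand T-box match at -250 to -244 stood next to an NKX match at -241 to -235. A T-box element beside an NK2 element is a known feature of the proximal *Nppa* promoter. The *Nppa* upstream sequence also held GATAA at -121 to -117, the same string on the reverse strand at -75 to -71, and TGACAG at -62 to -57. The *Nppa* peak region held TGACAG at -429 to -424 on the reverse strand and at -391 to -386, on either side of the summits. TAATTA was in none of the 4 sequences. The study reports potential HOX sites in its *Nppa* reporter fragment. The sequences shown do not cover all of that fragment, and other forms of the HOX motif were not searched.

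These strings are short and common. Among 32817 RefSeq upstream sequences of 250 bases, GATAA was in 22.6%, TGACAG in 15.9%, GGAATG in 12.6%, TNAAGTG in 10.1%, AGATAA in 9.99%, TAATTA in 4.85%, GGTGTGA in 3.33% and TGATTNAT in 2.83%. Within 150 bp of the summits of the 29 supported regions of the window, TGACAG was found at 9, TNAAGTG at 5, GATAA at 5, GGTGTGA at 3, AGATAA at 2, GGAATG at 1, TGATTNAT at 1 and TAATTA at 0. The shares over all 206299 supported regions were 21.9% for TGACAG, 12.3% for TNAAGTG, 24.4% for GATAA, 4.87% for GGTGTGA, 10.5% for AGATAA, 16.2% for GGAATG, 2.97% for TGATTNAT and 3.79% for TAATTA. A match is a run of letters and says nothing of binding.

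Both member promoters held less CpG than those of their neighbours. Within 150 bp of the highest summit, the observed over expected CpG was 0.321 at *Nppb* and 0.211 at *Nppa*, against 0.843 at the promoter of the neighbour *Clcn6*, 0.808 at *Plod1* and 0.940 at *2510039O18Rik*. The median was 0.209 over all 206299 supported regions, close to the value at *Nppa* and below that at *Nppb*, and 0.474 over the 34683 of them with a peak in all 7 libraries. Stretches of 31 bases across both summits had 1 copy each in the genome.

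The depth behind the lists was between 52340120 and 93074895 tags per library. A peak was listed if its p-value was at most 0.01, and the smallest pileup listed was between 6 and 9 tags, which is 2.48 to 2.94 times the genome background of its library. Peaks at *Nppb* and *Nppa* rested on 7 to 22 tags, close to that limit, so a missing peak says that accessibility was not detectable at this depth and not that the DNA was closed. Intervals on tags are 95% exact Poisson intervals and cover counting error only. Fold enrichment is the pileup at the summit over the local background of the same library, and a percent from the top is the place of a peak in the list of its own library ordered by fold enrichment, so that 1% is near the highest peak. Promoters run from 1000 bp upstream to 100 bp downstream of a TSS.

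Counts of marker promoters did not separate GFP+ from Tomato+ cells. With q at most 0.01, 3 to 5 of 6 posterior SHF markers and 3 or 4 of 5 anterior SHF markers had a promoter peak in each library, and 3 or 4 of 4 neural markers did too. Posterior markers numbered 5 and 5 in GFP+ against 3 and 5 in Tomato+ cells, and anterior markers 4 and 3 against 3 and 3. The share over all gene promoters was 53.7% to 56.7% per library. Cardiomyocyte markers had 1 or 2 of 4 in each library, with *Myh6* and *Myl7* in none. Blood markers had 0 of 4 in all 4 libraries of sorted-positive cells, 1 and 0 of 4 in the GFP- libraries and 2 of 4 in the Tomato- library. Per library, endothelial markers had 1 or 2 of 4 and endoderm markers 0 to 2 of 4. Neural crest markers had 0 or 1 of 3 and somite markers 0 to 3 of 3. The run name kept in the peak list of Tomato+ replicate 6 holds the letters YFP, which match neither reporter, and the sample label was followed.

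Across the window, the number of peaks ranged from 22 in GFP+ replicate 3 and Tomato+ replicate 8 to 41 in Tomato- replicate 7. GFP+ replicate 4 had 33, Tomato+ replicate 6 had 37, and the GFP- libraries had 36 and 24. The median over stretches of 120000 bp of the genome was 5 to 10 peaks per library, so the window was denser in peaks than the typical stretch in all 7 libraries. Peaks with q at most 0.01 numbered 7 and 12 in GFP+, 15 and 8 in Tomato+, 9 and 9 in GFP-, and 13 in Tomato- cells, against a genome median of 2 in each library. The groups overlapped in both counts.

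**Figure D1:**
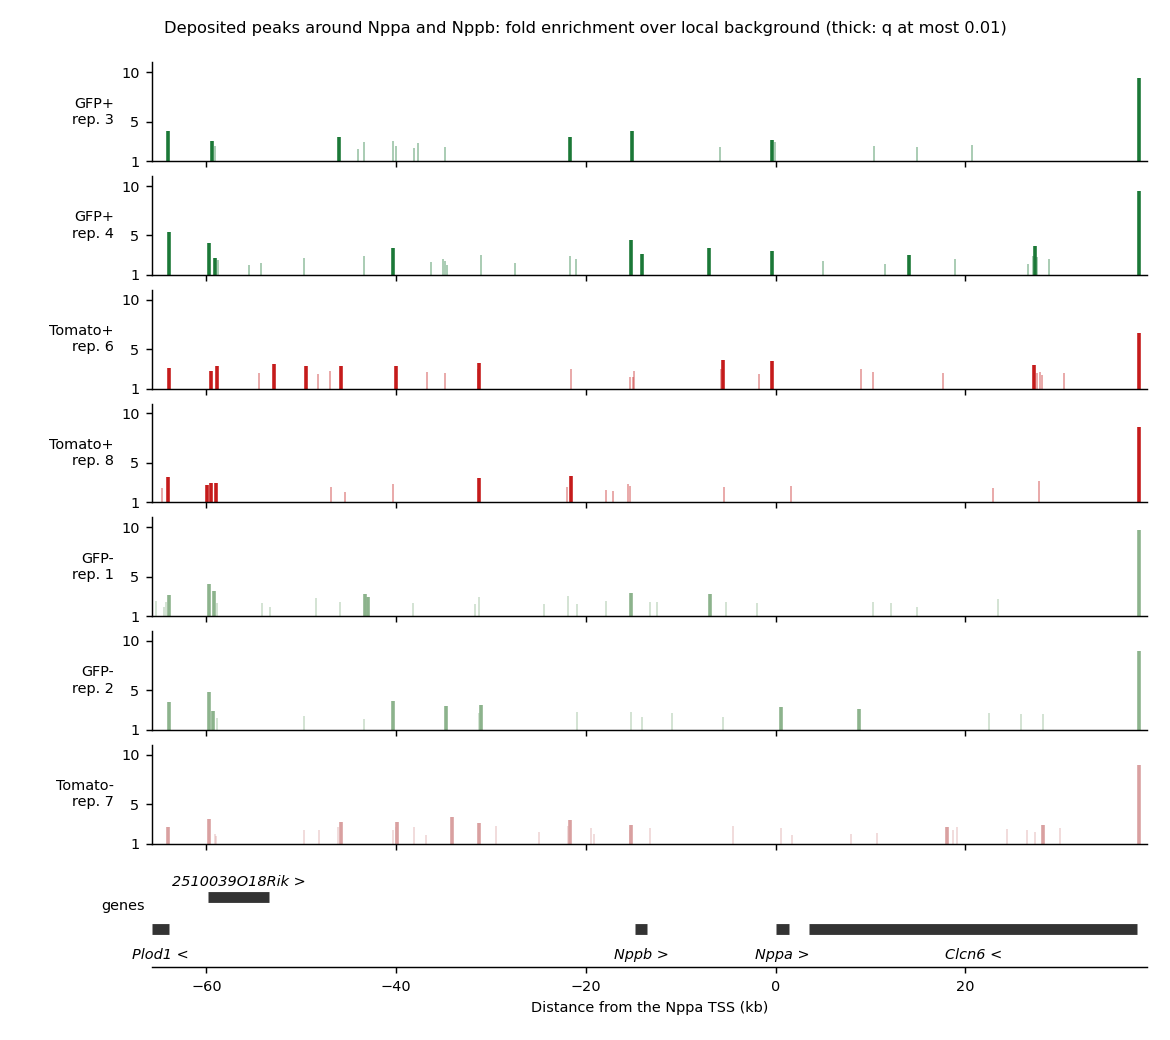
Each vertical line is 1 deposited peak, placed by the distance of its summit from the *Nppa* TSS in kb, and its height is the fold enrichment over local background, on an axis that starts at 1. Thick lines have q at most 0.01, green and red rows are libraries of the Hoxb1-GFP and *Mef2c-Cre;Rosa-tdT* lines, and the bottom row shows genes with their direction. The axis ends just past *Clcn6*. The *Clcn6* promoter at the right edge stood at 6.68 to 9.70 in all 7 libraries, while no peak at *Nppa* or *Nppb* passed 4.55.

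Of the 29 supported regions, 5 had a peak in all 7 libraries, against 16.8% of supported regions in the genome. They included the promoters of *Plod1*, *2510039O18Rik*, *Nppb* and *Clcn6*. In contrast, 17 of the 29 reached q at most 0.01 in exactly 1 library, against 64.8% in the genome. The promoter of *Nppb* was thus among the regions found in every library and that of *Nppa*, with 3 libraries, was not.

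The *Nppb* promoter had a listed peak in all 7 libraries, with q at most 0.01 in 4 of them, and ranked highest in GFP+ cells. Its region, chr4:147985294-147985862, lies upstream of the TSS at 147985900. The fold enrichment was 4.07 in replicate 3 and 4.55 in replicate 4 of GFP+ cells. It was 2.77 in Tomato+ replicate 6 and 2.67 in Tomato+ replicate 8, 3.35 in GFP- replicate 1, 2.85 in GFP- replicate 2 and 2.92 in the Tomato- library. Both GFP+ values were above the other 5.

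The same order held in the place of the peak within its list. The *Nppb* promoter was 9.98% and 10.3% from the top in the GFP+ libraries. It was 57.3% and 42.8% from the top in Tomato+ replicates 6 and 8, where the second value is that of a separate peak at -734, and the peak inside the region was at 59.4%. It was at 22.9% and 42.4% in GFP- and at 33.5% in Tomato- cells. Both Tomato+ values lay below that of the Tomato- library of the same line, and both GFP+ values lay above those of the GFP- libraries of the same line.

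The deposited q-values divided the libraries in the same way. The -log10 q was 4.30 and 7.24 in GFP+ cells, which are past q = 0.01, and 1.21 and 1.41 in Tomato+ cells, which are not. The 1.41 is that of the separate peak at -734 in Tomato+ replicate 8, and its peak inside the region had 1.04. It was 3.04 and 1.83 in GFP- cells and 2.19 in Tomato- cells. Across the genome, 173 of 26118 gene promoters, or 0.662%, had q at most 0.01 in both libraries of GFP+ cells and neither of Tomato+ cells. This share was computed after the values at *Nppb* had been seen.

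The listed extent of the *Nppb* peak also differed between GFP+ and Tomato+ cells, but the Tomato+ peaks lay near the limit of the lists. In GFP+ cells it was 1 peak of 374 bp in replicate 3 and 492 bp in replicate 4, with summits at -369 and -375. Tomato+ replicate 6 had 3 short peaks in its place, with summits at -515, -214 and -107, and Tomato+ replicate 8 had a summit at -522 besides the one at -734. The 3 peaks of replicate 6 rested on 7, 7 and 9 tags. The peak of replicate 8 at -522 rested on 9 tags and was 157 bp long. All 4 had q above 0.01, and the smallest pileup listed in these libraries was 6 and 7 tags. The part of depth in the split was not tested. GFP- cells also had 1 peak each, of 165 bp in replicate 1 and 369 bp in replicate 2, with summits at -426 and -400. A single wide peak was thus not particular to GFP+ cells. Tomato- cells had summits at -570 and -379. The motif matches in the *Nppb* upstream sequence at -105 to -79 lay outside the GFP+ peak of replicate 3, which ended at -185. The GFP+ peak of replicate 4 ended at -104, inside GGAATG, and the other matches lay beyond it. All of them were covered by the Tomato+ replicate 6 peak with its summit at -107, which ran from -110 to -38 and had q above 0.01.

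**Figure D2:**
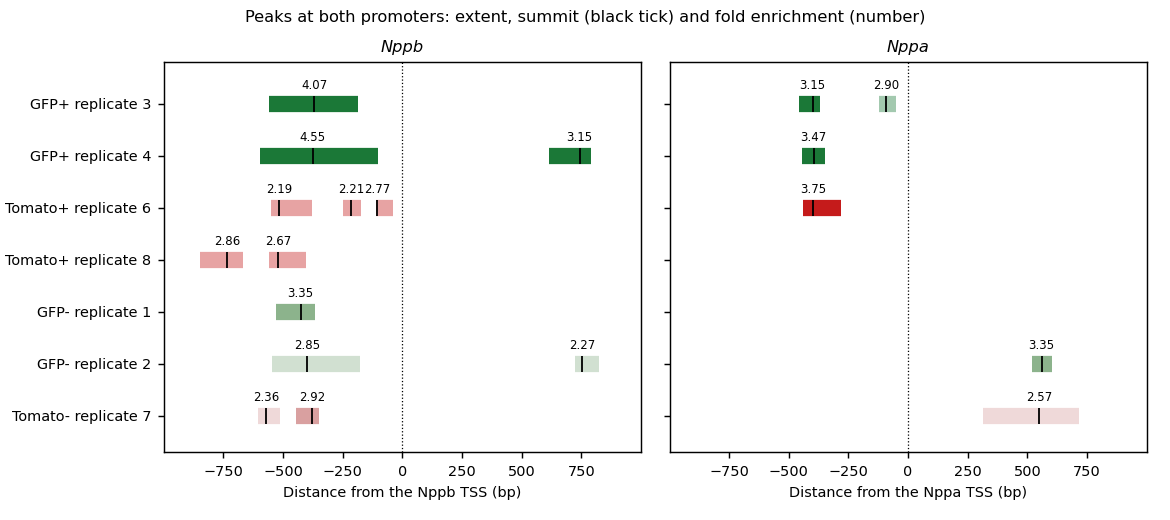
Horizontal bars are the deposited peaks within 1000 bp of the *Nppb* TSS (left) and the *Nppa* TSS (right), by library, on an axis of distance from the TSS in bp. Black ticks are summits, numbers are fold enrichments, and pale bars have q above 0.01. Upstream of the *Nppb* TSS the GFP+ and GFP- bars are single, and those of GFP+ reach 4.07 and 4.55. At *Nppa* the 3 bars around -398 are in both GFP+ libraries and Tomato+ replicate 6.

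Counting error was wide at *Nppb*. The summit pileup was 15 and 22 tags in GFP+ and 9 and 9 tags in Tomato+ cells, 15 and 13 in GFP- and 14 in Tomato- cells. Over genome background this was 6.46 (3.62 to 10.7) and 7.34 (4.60 to 11.1) in GFP+ and 4.40 (2.01 to 8.36) and 3.55 (1.63 to 6.75) in Tomato+ cells. It was 5.05 and 4.84 in GFP- and 3.85 in Tomato- cells. The GFP+ values did not overlap the others, but their intervals did. Pooled over replicates, GFP+ cells had 37 tags and Tomato+ cells 18, a ratio of 1.77 per sequenced tag with an interval of 0.982 to 3.30, which includes 1. The GFP+ tags were counted at -369 and -375, and the Tomato+ tags at -107 in replicate 6 and -522 in replicate 8. The ratio thus compares the highest summit of each library in the region and not a single site.

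A rank of GFP+ above Tomato+ was common among promoters. Of 14376 gene promoters with a peak in all 4 of these libraries, 31.1% had both GFP+ ranks above both Tomato+ ranks, and in the window this held for *Nppb* and for the other genes described here that had those peaks, *Plod1*, *2510039O18Rik* and *Clcn6*. The gap at *Nppb* was wide. Its mean percent from the top was 10.1 in GFP+ and 50.1 in Tomato+ cells, a difference of 39.9, where the median over those promoters was 1.04 (quartiles -0.235 and 3.29). A difference at least as large was found at 113 promoters, or 0.786% of them. These promoters were not matched to *Nppb* in height. Over all gene promoters with a peak, the median percent from the top was 5.36 to 7.87 in these 4 libraries. The 0.786% is thus not a share among promoters of like height. The difference in mean percent from the top was 29.6 at *2510039O18Rik*, 19.9 at *Plod1* and 1.77 at *Clcn6*. With 2 libraries against 2, the smallest two-sided p of an exact permutation test is 0.333, so the difference was not tested.

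Within the Hoxb1-GFP line, both GFP+ ranks were above both GFP- ranks at 32.0% of 14381 gene promoters with a peak in those 4 libraries. In the window it was so at *Nppb*, *Plod1* and *Clcn6*, and not at *2510039O18Rik*. This comparison does not involve the mouse line, and it was added after the data had been seen.

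**Figure D3:**
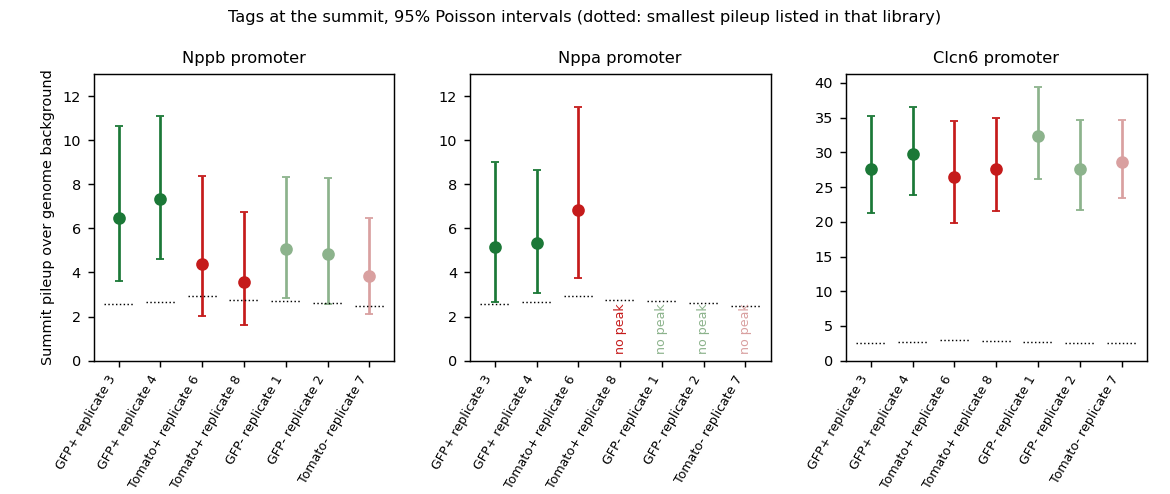
Points are the summit pileup divided by the genome background of the library, bars are 95% Poisson intervals, and dotted lines are the smallest pileup listed in that library, for the promoters of *Nppb*, *Nppa* and *Clcn6* (the right panel has a larger scale). GFP+ points at *Nppb* are highest with overlapping bars, *Nppa* has no point in 4 libraries, and the right panel runs from 26.4 to 32.3 with no order by group.

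The *Nppa* promoter had a peak in 3 of 7 libraries, at the same place in each. The region, chr4:148000266-148000441, ends upstream of the TSS at 148000722 and lies within the fragment of the reporter named in the study's methods. The summits lay within 4 bp, at -400 in GFP+ replicate 3, -396 in GFP+ replicate 4 and -398 in Tomato+ replicate 6. Tomato+ replicate 8, both GFP- libraries and the Tomato- library had no promoter peak.

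Where it was present, the *Nppa* peak was of like height. The fold enrichment was 3.15 and 3.47 in GFP+ cells and 3.75 in Tomato+ replicate 6, with -log10 q of 2.11, 3.51 and 3.51, all past q = 0.01. Its place was 24.2%, 21.0% and 16.9% from the top. The pileup was 12, 16 and 14 tags, or 5.17 (2.67 to 9.03), 5.34 (3.05 to 8.67) and 6.85 (3.75 to 11.5) times the genome background. The lower ends of these intervals are near the smallest pileup listed in the 4 libraries without a peak, 2.48 to 2.76 times the background, so the depth does not settle whether those libraries were lower.

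The 2 Tomato+ libraries therefore stood on different sides at *Nppa*, and the one with the peak is the library whose run name holds the letters YFP. Without it, the peak was in both GFP+ libraries and in no other. The part of that library's identity in the result was not tested. In the genome, 82 of 26118 gene promoters, or 0.314%, had a peak in both GFP+ libraries, 1 Tomato+ library and no sort-negative library. Within the Hoxb1-GFP line alone, 1.32% of gene promoters had a peak in both GFP+ and neither GFP- library, and *Nppa* was the only one of the 5 genes described here among them. Both shares were computed after the values at *Nppa* had been seen.

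The peak at *Nppa* did not reach the T-box and NKX matches of the upstream sequence. It ended at -281 at most, and those matches begin at -250. The *Nppa* peak was not without other strings nearby. Within 150 bp of its highest summit, at -398, the T-box, PBX and longer GATA strings were matched as well as the MEIS string. The T-box, PBX and longer GATA strings had no match wholly inside the peak region shown above, and the positions of these nearby matches were not listed. A second peak, at -122 to -50 with its summit at -91 and a fold enrichment of 2.90, was listed in GFP+ replicate 3 and had q above 0.01. It covers the GATAA matches at -121 and -75 and the TGACAG at -62. Compared with all genes, *Nppa* and *Nppb* both lay between the extremes, since 46.0% of gene promoters had q at most 0.01 in all 7 libraries and 21.4% had no peak in any library.

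The bodies of both genes held weaker peaks. In exon 2 of *Nppb*, chr4:147986514-147986725, the fold enrichment was 3.15 in GFP+ replicate 4 with q at most 0.01, and 2.27 in GFP- replicate 2 with q above it. In exon 2 of *Nppa*, chr4:148001036-148001439, it was 3.35 in GFP- replicate 2 with q at most 0.01, and 2.57 in Tomato- replicate 7 with q above it. No library had a listed peak at both this exon and the *Nppa* promoter, and GFP- replicate 1 and Tomato+ replicate 8 had neither. The *Nppa* exon peaks rested on 15 tags each, near the limit of the lists. A difference between sort-positive and sort-negative cells was therefore not read from them, and its share in the genome was not computed.

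The intergenic DNA between the genes held no region with a peak in both libraries of a group. The TSSs are 14822 bp apart, and the 12516 bp from the end of *Nppb* to the *Nppa* promoter held 11 regions, 3 of them supported. Each of the 3 reached q at most 0.01 in 1 library. The region chr4:147993673-147993761 was in GFP+ replicate 4 at a fold enrichment of 3.75, and chr4:147993805-147993909 in GFP- replicate 1 at 3.26. The region chr4:147995081-147995205 was at 3.94 in Tomato+ replicate 6 and at 2.34, with q above 0.01, in GFP- replicate 2. The other 8 regions were listed in 1 or 2 libraries each with q above 0.01, at fold enrichments of 2.29 to 2.96.

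Upstream of *Nppb*, the 37585 bp back to *2510039O18Rik* held 33 regions, of which 11 were supported. Of these 11, 0 had a peak in all 7 libraries, against 16.8% of supported regions in the genome, and 3 had one in 6 libraries. The region chr4:147978826-147979227, with its summit at -6753 from the *Nppb* TSS, had a fold enrichment of 3.40 and 2.89 in GFP+, 3.02 and 3.64 in Tomato+, 3.03 in GFP- replicate 1 and 3.40 in Tomato- cells. The region chr4:147969207-147969646 was missing in GFP+ replicate 3, and chr4:147960181-147960930 in GFP- replicate 1. At chr4:147969207-147969646 the fold enrichment was 2.97 in GFP+ replicate 4, below the 3.61 and 3.49 of Tomato+ cells. The values of GFP+ and Tomato+ libraries overlapped at the other two.

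The neighbours gave a scale for the members. The promoter of *Clcn6*, which encodes an endosomal chloride transporter, was between 1.65% and 3.92% from the top in the 7 libraries. Its pileup of 54 to 104 tags was 26.4 to 32.3 times the genome background, and the pooled GFP+ to Tomato+ ratio per tag was 1.06 (0.832 to 1.36). The promoter of *Plod1*, a collagen lysyl hydroxylase gene, at chr4:147936311-147936956, had fold enrichments of 4.03 and 5.36 in GFP+, 3.09 and 3.53 in Tomato+, 3.13 and 3.85 in GFP- and 2.72 in Tomato- cells.

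The promoter of *2510039O18Rik*, at chr4:147940765-147942129, differed from *Nppb* in its order. The strongest peak in the promoter interval was at 3.06 and 4.19 in GFP+, 2.79 and 2.93 in Tomato+, 4.24 and 4.81 in GFP- and 3.45 in Tomato- cells, so that both GFP- libraries were highest. The body of *Clcn6* held 31 regions, 5 of them supported and 0 in all 7 libraries, against 16.8% of supported regions in the genome. In intron 4 of *Clcn6*, chr4:148027925-148028077, the fold enrichment was 3.93 in GFP+ replicate 4 and 3.37 in Tomato+ replicate 6. By median fold enrichment the 5 highest supported regions were the *Clcn6* promoter, the intergenic region at -7010 from the *Nppa* TSS at 3.75, an intergenic region listed in Tomato- replicate 7 at 3.72 (chr4:147966473-147966764), the intron 4 region at 3.65 and *Plod1* at 3.53. The second to the fourth of these rest on 1 or 2 libraries each.

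Few regions of the window separated GFP+ from Tomato+ cells by presence. A peak in GFP+ replicates 3 and 4 with none in Tomato+ replicates 6 and 8 was found at 1 of 29 supported regions, against 3.2% in the genome. That region, chr4:147957239-147957517, is intergenic, and it reached q at most 0.01 in GFP- replicate 1 only, at a fold enrichment of 3.23, against 2.94 and 2.93 in GFP+ cells and 2.11 in GFP- replicate 2. The reverse was found at 0 of 29, against 2.59% in the genome.

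Ranks separated 4 of the 7 supported regions that had a peak in all 4 libraries. Both GFP+ ranks were above both Tomato+ ranks at 3 regions, the promoters of *Plod1*, *Nppb* and *Clcn6*, against 22.7% of 41555 such regions in the genome. Both Tomato+ ranks were above both GFP+ ranks at 1 region, which is not described here, against 13.2%. The region at *2510039O18Rik* did not separate the groups and also holds other Tomato+ peaks outside the promoter interval. The counts were small, and leaving out GFP+ replicate 3 or Tomato+ replicate 6 raised the first of them from 3 to 5, while the share in the genome rose from 22.7% to 30.6% and 41.6%.

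**Figure D4:**
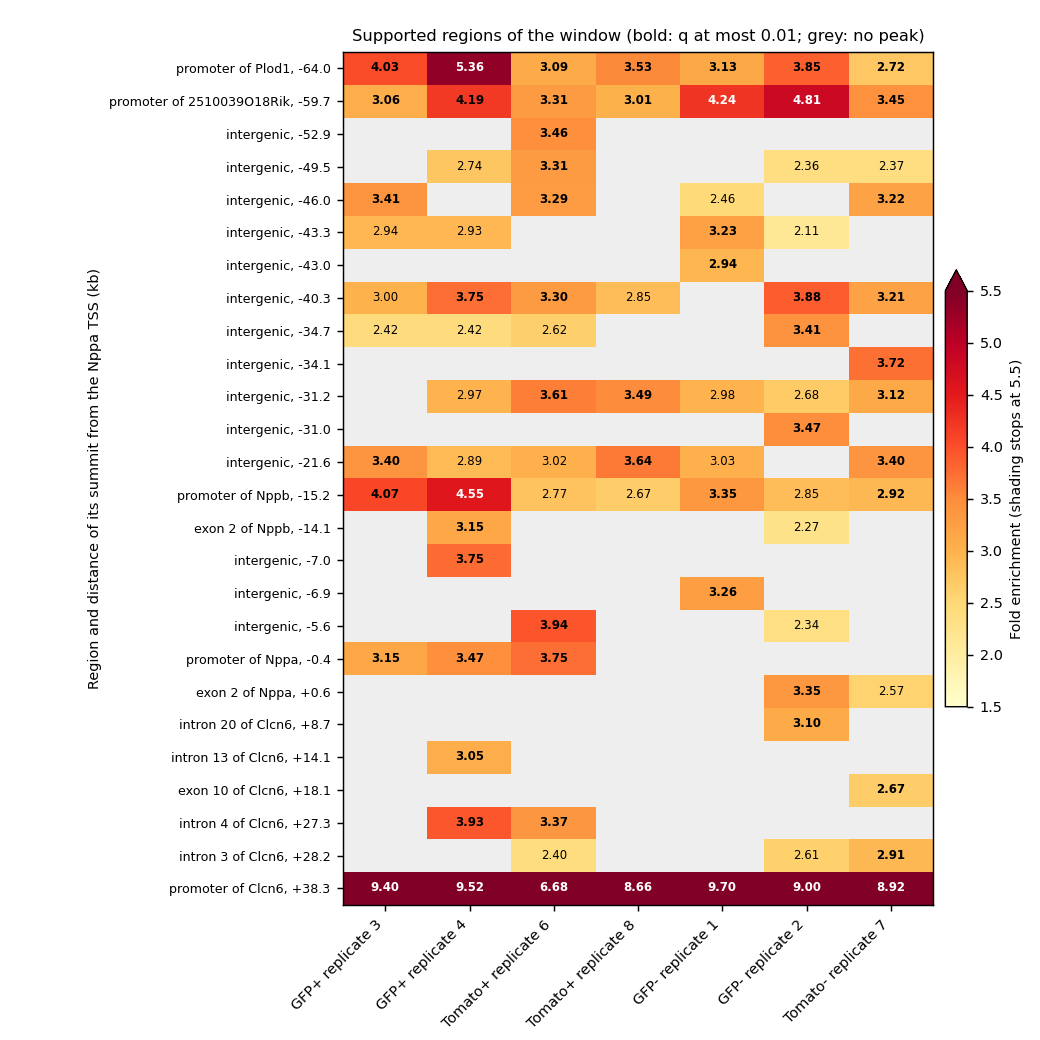
Rows are 26 of the 29 supported regions in order along the chromosome, with the distance of the summit from the *Nppa* TSS in kb, columns are libraries, and numbers and shading give the fold enrichment. Bold numbers have q at most 0.01 and grey cells have no peak. The promoters of *Plod1*, *2510039O18Rik*, *Nppb* and *Clcn6* are the 4 complete rows, and the *Nppa* promoter row has 3 values.

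Sort-positive cells were also set beside sort-negative cells, at the 5 regions with a peak in all 7 libraries. With 4 libraries against 3, the smallest p of a two-sided exact permutation test is 0.0571, so no region could pass 0.05 whatever its values, and the p-values do not show that the groups were alike. The log2 summit pileup over genome background at *Nppb* was 2.38 ± 0.48 (SD, n = 4) in sort-positive and 2.19 ± 0.21 (SD, n = 3) in sort-negative libraries (exact permutation p = 0.571, adjusted p = 0.571). The other 4 regions had p between 0.171 and 0.400 and an adjusted p of 0.500 each. *Nppa* could not be entered, since 4 libraries had no peak. The sort-positive group joins GFP+ and Tomato+ cells, and mouse line was not taken into account. At *Nppb* the pileup over genome background was 6.46 and 7.34 in GFP+ and 4.40 and 3.55 in Tomato+ cells. The SD of 0.48 thus includes the gap between these populations. The spread between libraries may also be technical.

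Promoters of related genes were looked up in the same way. Of 9 genes for the related peptide *Nppc*, the natriuretic peptide receptors and the enzymes that process or degrade the peptides, 4 had q at most 0.01 in all 7 libraries: *Nppc*, *Npr2*, which encodes a guanylate cyclase receptor, *Pcsk6*, a convertase, and *Mme*, the protease neprilysin. *Npr1*, the receptor for both member peptides, reached it in 5 libraries, and *Corin*, the protease that activates atrial natriuretic peptide in the heart, in 5. *Ide*, which encodes an insulin-degrading protease, reached it in none. The share of 4 in 9 is close to the 46.0% of all gene promoters.

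Among 18 genes of chamber myocardium, 5 had q at most 0.01 in all 7 libraries: *Myl4*, *Actn2*, *Ryr2*, *Gja1* and *Hey2*. It was reached in no library at 7, namely the sarcomere genes *Myh6*, *Myh7*, *Myl2*, *Myl3*, *Myl7* and *Tnni1*, and *Pln*, which encodes a regulator of the calcium pump and had no peak at all. Over all gene promoters it was reached in all 7 libraries at 46.0% and in no library at 34.5%. Between 6 and 8 of the 18 reached it in any 1 library, against 53.7% to 56.7% of all gene promoters. *Nppb*, in 4 libraries, and *Nppa*, in 3, thus fell between these sets. Both GFP+ ranks were above both Tomato+ ranks at 3 of the 7 genes with a peak in those libraries (*Actn2*, *Ryr2* and *Hey2*), against 31.1% of all gene promoters. The pattern of *Nppb*, q at most 0.01 in both GFP+ libraries and neither Tomato+ library, was found at 0 of the 18, against 0.662% of all gene promoters.

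Of 8 factors known to act on *Nppa*, 5 had q at most 0.01 in all 7 libraries, namely *Tbx2* and *Tbx3*, which repress chamber genes, *Tbx20*, *Mef2c* and *Srf*, against 46.0% of all gene promoters. *Gata4* had it in 6 libraries, *Nkx2-5* in 2 and *Tbx5* in 1. *Nkx2-5* passed in GFP+ replicate 3 and Tomato+ replicate 6, at 15.6% and 12.6% from the top. *Tbx5* passed in GFP- replicate 2.

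**Figure D5:**
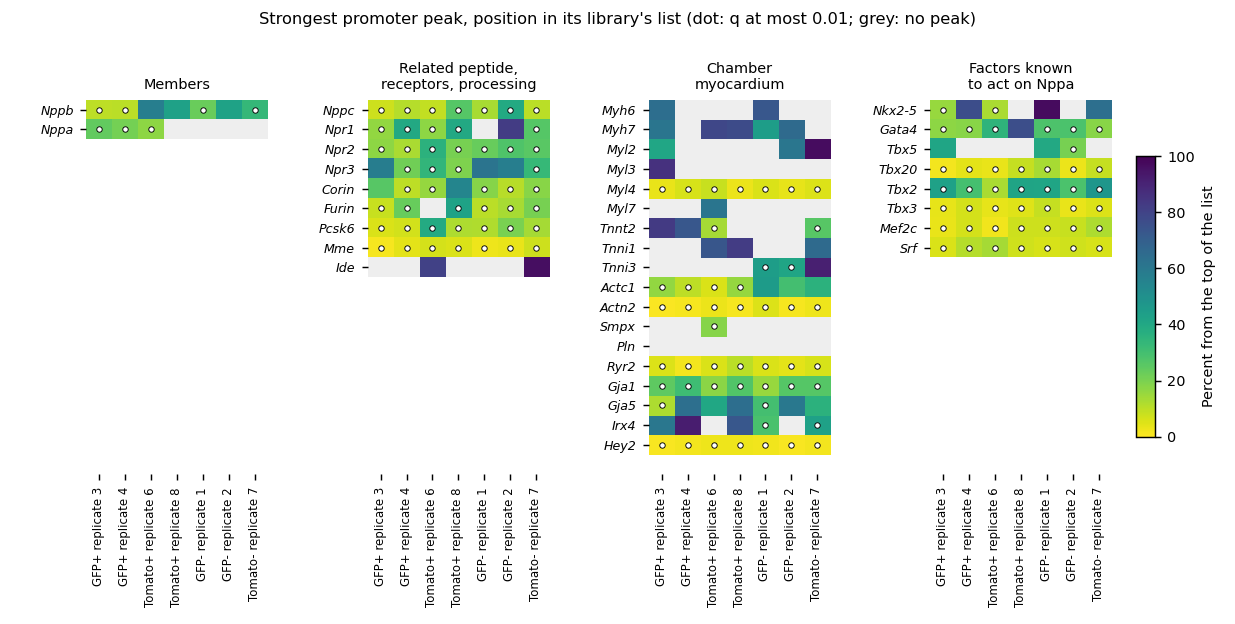
Colours give the place of the strongest promoter peak in the list of its library, as percent from the top by fold enrichment (yellow is near the top), for the members and 3 lists of related genes. Dots mark q at most 0.01 and grey cells have no peak. The row of *Nppb* is lightest in the GFP+ libraries at 9.98% and 10.3%, and that of *Nppa* is filled in 3 of 7 libraries.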

How the data were processed

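ATAC-seq was carried out by the authors on FACS-sorted cells of 4 populations, in 7 libraries. Per the methods and labels, reads were aligned with SNAP to GRCm38 (mm10), filtered with SAMtools to proper pairs without duplicates or blacklisted regions, and peaks were called with MACS2 in each library separately. The methods name version 2.1.1. Only the list of Tomato+ replicate 6 has a header, which gives an older release, tags extended to 73 bp and no control. All lists stop at a p-value of 0.01. The deposited pileup is a coverage signal at the summit, not scaled to depth. Fold enrichment was deposited as a ratio, the summit pileup over the background nearby. Significance was deposited on a -log10 scale, as a p-value and a q-value of MACS2, and grows with depth. No columns of other samples were present.

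Of a peak with several summits, the one with the smallest p was kept. Tags per library were computed from the lowest background in each list, with 73 bp per tag and 1870000000 bp as the genome's effective size. Peaks were joined at an overlap of 1 bp, and a region was supported with q at most 0.01 in at least 1 library. Promoters ran from 1000 bp upstream to 100 bp downstream of curated RefSeq TSSs (GRCm38.p6, 26118 genes). For a gene with several TSSs, the one with q at most 0.01 in most libraries was used. Motif strings were searched on both strands. Genes named are *Nppa*, *Nppb*, genes with a TSS in the window and listed genes (1 gene of each kind is not reported here), and regions named are all peaks from *Nppb* to *Nppa*, the 5 supported regions with the highest median fold enrichment and those that separate GFP+ from Tomato+ cells. The 3 upstream regions with peaks in 6 libraries and the *Clcn6* intron were named in addition. The members, the gene lists and the tests were chosen with earlier results of these data known. Joining and calling were tested on 20000 simulated regions, and 7 of 7 checks were passed. Software was scipy 1.17.1, numpy 2.4.6, pandas 2.3.3 and matplotlib 3.10.9 under Python 3.11.15. The read counts under the peaks and the RNA-seq of the study were not used here.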

Additional observations from a re-analysis of the deposited data

How the results depend on the processing

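The *Nppb* promoter kept its order. Its mean percent from the top was 39.9 higher in Tomato+ than in GFP+ cells when ranked by fold enrichment, 43.2 by -log10 p and 32.1 by pileup over genome background. That of *Nppa* in GFP+ cells was 22.6 by fold enrichment, 19.5 by -log10 p and 17.1 by pileup. With q at most 0.01, *Nppb* had a promoter peak in 4 libraries, and with q at most 0.0001 in 2, while *Nppa* had 3 and 0. Peaks in the window with q at most 0.01 numbered 7, 12, 15, 8, 9, 9 and 13 in GFP+ replicates 3 and 4, Tomato+ replicates 6 and 8, GFP- replicates 1 and 2 and Tomato- replicate 7. Requiring q at most 0.0001 left 9 supported regions, of which 0 were in both GFP+ and neither Tomato+ library (2.54% in the genome). With only peaks of q at most 0.01, 3 regions were in all 7 libraries (11.5% in the genome). In both Tomato+ and neither GFP+ library there was 1 (1.27%), and 0 ranked higher in Tomato+ (11.9%). Ranking by -log10 p gave 5 regions higher in GFP+ (22.4% in the genome), and by pileup 5 higher in GFP+ (23.1%) and 0 in Tomato+ (12.7%). Leaving out each library in turn gave 25 to 29 supported regions, with 5 to 6 in all libraries left (18.9% to 19.9% in the genome). Regions in GFP+ without Tomato+ then numbered 0 to 4 (3.32% to 14.2%), and those in Tomato+ without GFP+ 0 to 4 (2.66% to 12.1%). Those ranked higher in GFP+ numbered 3 to 5 (22.7% to 48.2%), and in Tomato+ 1 to 3 (13.2% to 34.99%). The region in GFP+ without Tomato+ was lost without GFP- replicate 1, which gave it its q-value. Without Tomato+ replicate 8, 4 regions were in Tomato+ and not in GFP+, while that share in the genome rose from 2.59% to 12.1%. The causes of these changes were not tested, but a group left with 1 library meets a rule on all its libraries more easily. Sharing at least 50 bp, and a promoter of 500 bp on either side, moved no count by more than 1.5 times. With 500 bp on either side, however, *Nppa* had a promoter peak in 4 libraries in place of 3. The added library was Tomato- replicate 7, through its exon 2 peak that starts at +314, with q above 0.01. The absence of *Nppa* promoter peaks from sort-negative libraries thus depends on the interval used. No paired analysis was possible because the groups share no replicate numbers.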
